A study of Mus musculus with 6 samples.

Results

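Protocadherin messenger RNA was followed in embryonic stem (ES) cells of the mouse, pluripotent cells kept in culture that correspond to the early embryo. The members were all protein-coding genes whose GENCODE M21 symbol starts with Pcdh. This rule found 69 of the 55401 genes in the table, namely 14 Pcdha (alpha), 22 Pcdhb (beta), 21 Pcdhg (gamma) and 12 other, non-clustered genes. Of 6 libraries, 3 came from cells labelled as 3XHA-Taf13 expressing and left untreated, and 3 from cells labelled KO and given doxycycline. The study's title names Taf13, which encodes part of TFIID, a general factor that binds promoters and brings in RNA polymerase II. The culture lasted 7 days in either condition. Each library came from a separate dish. Doxycycline and the KO label always went together, so their contributions cannot be told apart. Which strain, clones, Taf13 alleles and promoter of the tagged Taf13 were used is not given in the sources used here. P-values measure the spread between dishes, which may share a starting culture.

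Protocadherins are the largest group within the cadherin superfamily, calcium-dependent adhesion proteins of the cell surface. The clustered members lie in a tandem array. Each alpha and gamma gene has its own promoter and variable exon, spliced to constant exons shared by the cluster, whereas each beta gene is a single large exon. In neurons, CTCF, cohesin and DNA methylation set which variable promoters are used, and the resulting combinations let a neuron tell its own branches from those of other neurons. The non-clustered members are separate genes, of which the delta 1 (Pcdh1, Pcdh7, Pcdh9, Pcdh11x) and delta 2 (Pcdh8, Pcdh10, Pcdh17, Pcdh18, Pcdh19) families differ in their cytoplasmic motifs and are known for patterned expression in embryos and brain.

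In mm10, the alpha cluster spans chr18:36930184-37187661, the beta cluster chr18:37264938-37524479 and the gamma cluster chr18:37661793-37841873. A further 2 non-clustered genes bring the members on chromosome 18 to 59. The shared constant exons limit what a count of an alpha or gamma gene holds. Exon sequence annotated to no other gene made up 8.56% to 61.1% of an alpha gene and 33.2% to 68.5% of a gamma gene. Reads in shared exons appear to have been left unassigned, because 4 annotated genes made wholly of shared exon (Gm37013, Gm37388, Gm38182 and Gm42416) had 0 counts in all 6 libraries. The counts of alpha and gamma genes are therefore read here as counts of their variable exons. Variable exons of neighbouring genes also resemble each other, and how reads that fit several were treated is not given in the sources used here. Exons of 17 members lie opposite exons of another gene. Pcdhga10 is the most exposed, since its 2613 unshared bases all lie opposite exons of Gm26672. The strand option of the counting step is not given in the sources used here.

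Levels are in CPM (counts relative to the TMM-scaled library size) as mean ± SD of 3 libraries per group. Fold changes are log2, KO minus expressing, ± the standard error from edgeR's quasi-likelihood test. A gene rose or fell where its p-value, adjusted over all 17778 genes tested, was under 0.05. Total counts ran from 31219328 to 50328010 per library, so that 3 counts correspond to 0.0581 to 0.0961 CPM (counting error only). Taf13 itself had 244, 445 and 447 counts in the expressing libraries, against 422, 634 and 699 in the KO libraries, or 10.0 ± 2.21 against 13.2 ± 1.02 CPM (log2 fold change 0.40 ± 0.147, adjusted p = 0.0578; 0.28 with adjusted p = 0.0126 without expressing replicate 1, and 0.57 with adjusted p = 0.0151 without expressing replicate 3). DESeq2, an alternative test, gave Taf13 a log2 fold change of 0.41 with adjusted p = 0.0279 on all 6 libraries. A gene-level count does not tell the tagged from the chromosomal transcript, so it does not check the labels. Expressing replicate 1 stood apart, with a read-weighted GC content of 48.5% against 47.7% and 47.8% in the other expressing libraries. Of the ES cell markers, 8 of 8 fell, from a summed 3384 to 3496 CPM to 2195 to 2224 CPM. Of the primitive endoderm markers, 10 of 10 rose, from 129 to 161 CPM to 582 to 601 CPM. Fibroblast markers summed to 116 to 142 CPM in the expressing libraries and to 107, 199 and 110 CPM in KO replicates 1, 2 and 3, with 4 of 11 higher and 1 lower. Neural markers (2 higher and 4 lower of 9 tested) summed to 432 to 497 and 353 to 374 CPM, and endothelial and mesoderm markers (3 higher and 3 lower of 6 tested) to 102 to 114 and 80.5 to 82.2 CPM. For comparison, 19.2% of all genes tested rose and 20.8% fell. No marker in these lists was at 0 in all libraries. The marker levels moved with the same groups as the protocadherins, and their part in the results was not tested. In such bulk RNA, more cells of a type and more RNA per cell cannot be told apart.

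Of the 69 protocadherins, 41 had enough counts to be tested, 20 rose, 2 fell and 19 did not pass. Over all genes tested, 40.0% passed, 19.2% rising and 20.8% falling, against 48.8% and 4.88% of the tested protocadherins. The median log2 fold change was 0.61 over the 41, against -0.01 over all genes tested. The groups did not overlap for 24 of the 41, with all KO libraries higher for 23 and all lower for 1 (53.5%, 26.4% and 27.1% of all genes tested). The risers were 14 gamma, 5 non-clustered and 1 beta gene, and the fallers Pcdh17 and Pcdhb8. Without expressing replicate 1, 24 rose and 2 fell. Without KO replicate 2, 14 rose and 0 fell, and the gene counts of the other leave-one-out fits lay between these. Over all genes, the leave-one-out fits called 2541 to 4851 higher and 2627 to 4589 lower, against 3422 and 3695 with all libraries. The members tested also changed, being 46 without expressing replicate 1 and 42 without KO replicate 2. The 28 members untested with all libraries had 5 to 63 counts over all 6 libraries together (median 23.5). Most tested members were above the filter in every library (32 of 41), and Pcdhb3, Pcdhb8 and Pcdhb20 passed it through 1 group only.

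**Figure D1:**
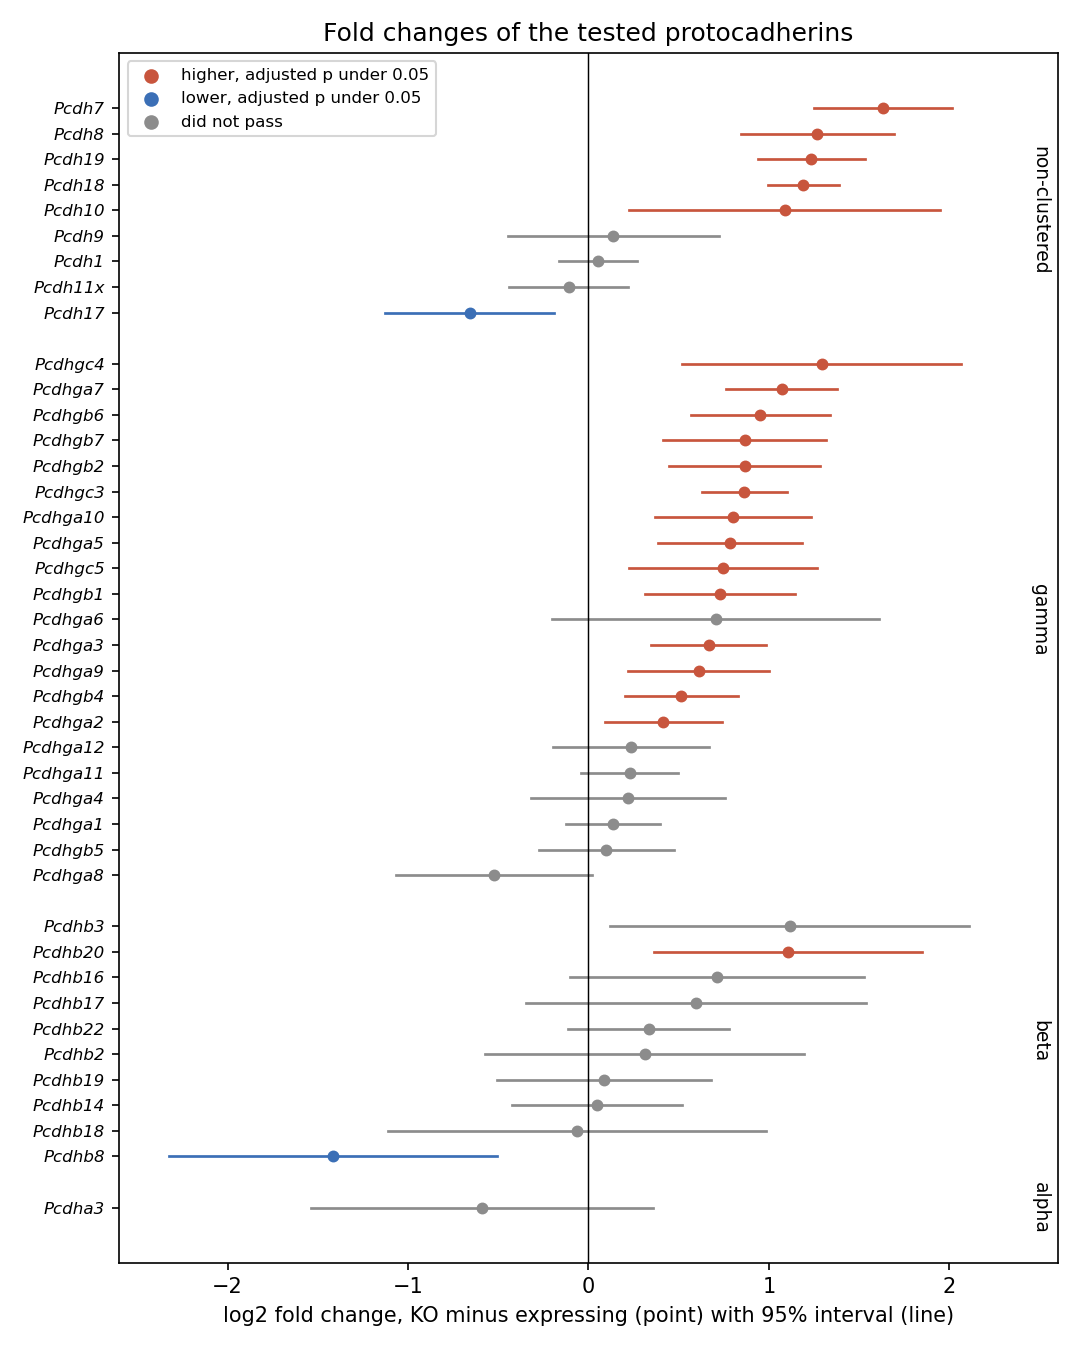
Log2 fold change of each tested protocadherin, KO minus expressing (point), with its 95% interval (line), grouped into non-clustered, gamma, beta and alpha genes; red and blue mark genes that rose and fell at an adjusted p under 0.05, grey those that did not pass. The points of 20 of 21 gamma genes lie to the right of 0, and Pcdh7 has the highest value of all at 1.63.

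Among the non-clustered members, 5 of 9 tested rose and 1 fell (55.6% and 11.1%, against 19.2% and 20.8% of all genes tested). The median log2 fold change was 1.09 over the 9. Of the 4 that rose in each leave-one-out fit, 3 (Pcdh8, Pcdh18 and Pcdh19) belong to delta 2 and 1 (Pcdh7) to delta 1. Their KO levels were 2.28 to 3.10 times the expressing levels. Rises of at least 2-fold made up 5.22% of all genes tested and falls of that size 3.64%.

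Pcdh7 (ENSMUSG00000029108, chr5:57717967-58133230), a delta 1 adhesion protein whose cytoplasmic end binds the phosphatase PP1 and the oncoprotein SET, was at 3.17, 4.47 and 4.02 CPM in the expressing libraries, against 10.7, 14.9 and 10.8 in the KO libraries. Every KO library was well above every expressing library. The group levels were 3.89 ± 0.658 and 12.1 ± 2.39 CPM (log2 fold change 1.63 ± 0.169, adjusted p = 8.83e-05). KO replicate 2 was the highest, and without it the log2 fold change was 1.46. Of its 10604 exon bases, 2235 lie opposite exons of another gene.

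Pcdh8 (ENSMUSG00000036422, chr14:79766775-79771312), the mammalian relative of the paraxial protocadherin of frog and fish gastrulae, is also known at synapses. It was at 1.79, 1.41 and 2.38 CPM in the expressing libraries, against 4.47, 4.90 and 4.01 in the KO libraries. The groups were again separate (log2 fold change 1.27 ± 0.188, adjusted p = 0.000699). Pcdh18 (ENSMUSG00000037892, chr3:49743296-49757325), a protein that binds the adaptor Disabled-1, was at 7.85, 8.75 and 7.75 CPM in the expressing libraries, against 18.1, 19.0 and 18.6 in the KO libraries. This was the tightest of the rises, with SDs of 0.554 and 0.457 CPM (log2 fold change 1.19 ± 0.0866, adjusted p = 1.27e-05). Pcdh19 (ENSMUSG00000051323, chrX:133582860-133688987) is an X-linked gene whose human counterpart is mutated in an epilepsy that mainly affects females. It was at 7.95, 9.28 and 9.63 CPM in the expressing libraries, against 18.6, 25.3 and 19.5 in the KO libraries. All KO libraries were higher, with KO replicate 2 the highest (log2 fold change 1.24 ± 0.133, adjusted p = 0.000109).

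The bases just before the RefSeq starts of these 4 genes (GRCm38.p6, the build of the files) are shown because the genes rose together from 4 separate sites on chromosomes 3, 5, 14 and X. Each runs 5′ to 3′ on the gene's own strand, in lower case with matches in capitals. The matches searched, on both strands, were TATAAA (the TATA box), CCAAT (the CAAT box, which reads ATTGG when it is on the opposite strand) and GGGCGG (the GC box, which then reads CCGCCC), and none of those printed overlap. Bases inside the GENCODE gene model were left out, 114 for Pcdh7 and 9 for Pcdh18. The stretches are chr5:57717831-57717966 (plus strand) for Pcdh7, and chr14:79771313-79771562, chr3:49757326-49757566 and chrX:133688994-133689243 (minus strand) for Pcdh8, Pcdh18 and Pcdh19.
Pcdh7: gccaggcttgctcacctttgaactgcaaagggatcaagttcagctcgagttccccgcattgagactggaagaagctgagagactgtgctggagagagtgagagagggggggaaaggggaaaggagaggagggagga
Pcdh8: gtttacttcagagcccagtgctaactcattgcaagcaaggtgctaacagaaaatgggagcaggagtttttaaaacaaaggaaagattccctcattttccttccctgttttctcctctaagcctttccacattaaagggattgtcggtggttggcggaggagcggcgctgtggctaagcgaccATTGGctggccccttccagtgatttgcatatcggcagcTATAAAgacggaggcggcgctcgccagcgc
Pcdh18: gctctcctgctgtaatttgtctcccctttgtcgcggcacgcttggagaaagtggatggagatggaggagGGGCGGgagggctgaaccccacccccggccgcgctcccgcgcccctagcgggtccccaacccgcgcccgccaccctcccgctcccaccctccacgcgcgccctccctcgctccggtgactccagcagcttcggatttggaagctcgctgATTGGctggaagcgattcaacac
Pcdh19: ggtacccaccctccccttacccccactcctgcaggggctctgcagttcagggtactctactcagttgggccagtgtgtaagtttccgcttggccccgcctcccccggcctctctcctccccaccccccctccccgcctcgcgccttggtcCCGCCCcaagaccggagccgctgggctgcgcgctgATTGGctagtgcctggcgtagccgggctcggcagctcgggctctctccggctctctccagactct
Pcdh8 alone among them had a TATAAA, with its first base 30 bases before the start. A CCAAT match on the minus strand of the gene stood 68, 32 and 65 bases before the starts of Pcdh8, Pcdh18 and Pcdh19. A GC box stood 181 bases before Pcdh18 and 100 before Pcdh19. No match of the 3 motifs lay in the 250 bases before Pcdh7. Pcdh17, the non-clustered gene that fell, had CCAAT at 101 and 58 and a GC box at 131 bases before its start, so these letters did not separate it from the risers. In 250 bases before the start, TATAAA occurs in 12.4%, CCAAT in 33.8% and the GC box in 32.7% of the 32851 promoters of the table. The same windows held 7 (Pcdh7), 11 (Pcdh8), 23 (Pcdh18) and 16 (Pcdh19) CpG dinucleotides against a median of 6 over the table. The upper quartile over the table was 16. Pcdh17 held 21, Pcdh10 22 and Pcdh9, which did not pass, 18, so CpG number did not separate these 4 genes from the others either. The untested Pcdh15 and Pcdh20 held 6 and 3. RefSeq's table gave a promoter for 9 of the 69 members.

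The other delta 2 members gave less certain calls. Pcdh10 (chr3:45378398-45435623), which links to the WAVE actin regulators through Nckap1, was near the limit of detection at 0.385, 0.136 and 0.356 CPM in the expressing libraries, against 0.459, 0.599 and 0.717 in the KO libraries. It rose by 1.09 ± 0.384 on the log2 scale (adjusted p = 0.0475). The call was lost with DESeq2 (adjusted p = 0.101) and without expressing replicates 2 or 3 (0.149 and 0.0686) or KO replicates 1, 2 or 3 (0.0580, 0.108 and 0.169). Pcdh17 (chr14:84443563-84539002), another WAVE-binding member, went the other way, with 2.34, 3.13 and 3.89 CPM in the expressing libraries, against 2.44, 1.75 and 1.82 in the KO libraries. The groups overlap, since KO replicate 1 was above expressing replicate 1. The log2 fold change was -0.66 ± 0.208 (adjusted p = 0.0311), and the call was lost without expressing replicates 2 or 3 (0.0553 and 0.127) or KO replicates 2 or 3 (0.109 and 0.114).

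Of the delta 1 members, Pcdh7 rose and the other 3 did not pass. Pcdh1 (chr18:38185914-38212053), an epithelial adhesion protein and the most abundant protocadherin here, was at 63.2, 48.6 and 52.4 CPM in the expressing libraries, against 57.7, 58.6 and 53.9 in the KO libraries. The KO libraries lay within the range of the expressing ones, of which replicate 1 was the highest. The log2 fold change was 0.05 ± 0.0958 (95% interval -0.16 to 0.27, adjusted p = 0.691), so a change of 2-fold is outside the interval. Without expressing replicate 1 it was 0.20 (adjusted p = 0.00264), without expressing replicate 2 it was -0.03, and with the GC trend removed 0.12 (adjusted p = 0.0443). Pcdh9 (chr14:93013410-93890679) was at 1.01 ± 0.108 and 1.09 ± 0.373 CPM (log2 fold change 0.14 ± 0.261, interval -0.45 to 0.73). Pcdh11x (chrX:120290259-120910619) was at 2.43 ± 0.248 and 2.27 ± 0.220 CPM (-0.11 ± 0.148, interval -0.44 to 0.22). Neither passed, with adjusted p = 0.701 and 0.586.

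Outside the delta families, 3 non-clustered members had too few counts to be tested. Pcdh12, an endothelial and trophoblast cadherin, had 3 counts over the expressing and 10 over the KO libraries. Pcdh15, the lower part of the tip link of inner ear hair cells, had 15 and 12. Pcdh20 had 24 and 28, of which 16 were in KO replicate 1. A fit without the filter gave adjusted p = 0.468, 0.639 and 0.961 for Pcdh12, Pcdh15 and Pcdh20, so that no difference was detectable at this depth.

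**Figure D2:**
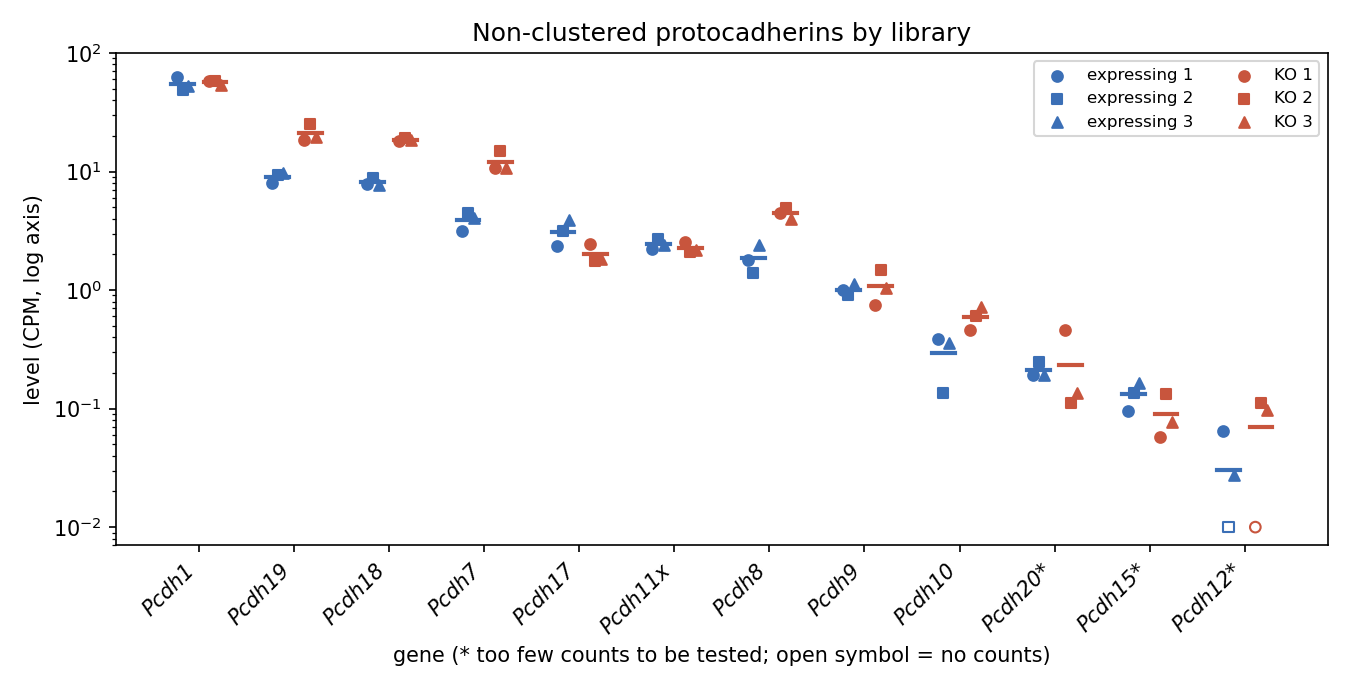
Level in CPM (log axis) of the 12 non-clustered protocadherins in each library, blue for expressing and red for KO, with replicates 1, 2 and 3 as circle, square and triangle and the group mean as a bar; an asterisk marks genes with too few counts to be tested and an open symbol, drawn at the foot of the axis, a library with 0 counts. The red symbols of Pcdh7, Pcdh8, Pcdh18 and Pcdh19 all lie above the blue ones, whereas those of Pcdh1, Pcdh9, Pcdh11x and Pcdh17 overlap.

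In the gamma cluster all 21 members were tested, and 14 rose (66.7%, against 19.2% of all genes tested). None fell by edgeR, by DESeq2 or at an unadjusted p under 0.05 (0 each). The median log2 fold change was 0.70, and 20 of 21 values were positive. All KO libraries were above all expressing libraries for 15 (71.4%, against 26.4% of all genes tested). DESeq2 called 12 higher. The gene counts without 1 library were 15 (expressing replicate 1), 12 (expressing replicate 2), 11 (expressing replicate 3), 12 (KO replicate 1), 10 (KO replicate 2) and 11 (KO replicate 3). KO replicate 2 is also the library with the highest fibroblast marker sum, and whether this bears on the gamma counts was not tested. Of the 14, 9 rose in each of these fits.

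The gamma genes fall into the A, B and C types, which differ in the sequence of their variable exon. The 3 C-type genes lie at the end of the array, next to the constant exons, and in neurons are expressed from both alleles rather than by random choice. All 3 rose. Pcdhgc3 (ENSMUSG00000102918, chr18:37806364-37841873), known for binding and inhibiting Axin1, was the most abundant gamma gene, at 14.3, 12.2 and 13.2 CPM in the expressing libraries, against 21.0, 26.4 and 24.5 in the KO libraries. Its groups were far apart (13.2 ± 1.07 and 24.0 ± 2.74 CPM, log2 fold change 0.86 ± 0.105, adjusted p = 0.000221). Of its 3380 unshared exon bases, 1559 lie opposite exons of another gene. Pcdhgc4, required for the survival of interneurons in mice, was at 0.449, 0.431 and 0.192 CPM and at 0.631, 1.09 and 0.892 (1.29 ± 0.344, adjusted p = 0.0148). Its 1.29 was the highest log2 fold change in the cluster, but at low counts, and the call was lost without KO replicate 2 (adjusted p = 0.0628). Pcdhgc5 was at 0.749 ± 0.0998 and 1.26 ± 0.279 CPM (0.75 ± 0.232, adjusted p = 0.0290). That call was lost without expressing replicate 3 (0.0821) and without KO replicates 2 or 3 (0.108 and 0.0936), and with DESeq2 (0.0631).

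Of the 6 B-type genes, 5 rose, with a median log2 fold change of 0.80 over the 6. Pcdhgb6 (chr18:37742094-37841873) was at 1.15, 0.907 and 1.04 CPM in the expressing libraries, against 1.86, 1.93 and 2.15 in the KO libraries (0.95 ± 0.172, adjusted p = 0.00208). Pcdhgb2 (chr18:37689828-37841873) was at 2.02, 1.36 and 2.30 CPM and at 3.27, 3.59 and 3.37 (0.87 ± 0.187, adjusted p = 0.00537). In both genes the lowest KO library exceeded the highest expressing library. Pcdhgb7 and Pcdhgb1 rose by 0.87 and 0.73. Pcdhgb4 rose by 0.51, a call lost without expressing replicate 2 (adjusted p = 0.0543) and without KO replicates 1 or 2 (0.0649 and 0.0513). Pcdhgb5 did not pass (0.10 ± 0.166, interval -0.27 to 0.47). Its expressing libraries, at 2.53, 2.97 and 3.97 CPM, spread around the KO libraries at 3.35, 3.35 and 3.47.

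Of the 12 A-type genes, 6 rose, with a median of 0.51 over the 12. Pcdhga7 (chr18:37714764-37841873) changed most among them, from 2.11, 2.59 and 2.46 CPM to 4.53, 4.95 and 5.60 (1.07 ± 0.138, adjusted p = 0.000308). The KO libraries were all above 4 CPM and the expressing ones all under 3. Pcdhga3 (chr18:37674307-37841873) went from 2.34, 2.34 and 2.13 CPM to 3.10, 3.97 and 3.70 (0.67 ± 0.141, adjusted p = 0.00488), again without overlap. Pcdhga10 and Pcdhga5 rose by 0.80 and 0.79. Gm26672, which lies opposite Pcdhga10, also rose (1.93 ± 0.271 to 3.36 ± 0.405 CPM, 0.80 ± 0.160, adjusted p = 0.00359). Had the strand been ignored, reads there would fit both genes and, as read above for shared exons, be left unassigned. Pcdhga10 had 44, 90 and 66 counts in the expressing libraries, against 86, 164 and 160 in the KO libraries. The counting therefore appears to have used the strand, although carry-over of reads between the strands was not tested. Pcdhgb7, Pcdhga11 and Pcdhga12 have 771, 1381 and 422 exon bases opposite Gm26672. Pcdhga9 rose by 0.61, a call lost without expressing replicate 3 (adjusted p = 0.0660) and without KO replicates 1 or 3 (0.0639 and 0.0872). Pcdhga2 rose by 0.42 (adjusted p = 0.0449), which held in the leave-one-out fits only without expressing replicate 1 (0.0292). Without expressing replicates 2 or 3 or KO replicates 1, 2 or 3 it had adjusted p = 0.120, 0.0595, 0.0703, 0.161 and 0.0638. DESeq2 with all libraries gave 0.0797.

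The 6 A-type genes that did not pass include the most abundant one. Pcdhga1 (chr18:37661793-37841873), the member at the start of the cluster, was at 6.44, 7.30 and 5.75 CPM in the expressing libraries, against 7.02, 7.61 and 6.82 in the KO libraries. These ranges overlap (0.14 ± 0.116, interval -0.13 to 0.40, adjusted p = 0.383). Pcdhga11 was at 5.01 ± 0.640 and 5.84 ± 0.167 CPM (0.23 ± 0.120, adjusted p = 0.156; 0.36 with adjusted p = 0.0148 without expressing replicate 1). Pcdhga4, Pcdhga6 and Pcdhga12 had log2 fold changes of 0.22, 0.70 and 0.24 with overlapping groups. Pcdhga8 was the gamma gene below 0, at 1.41, 1.18 and 2.11 CPM against 1.09, 1.20 and 0.969 (-0.52 ± 0.241, adjusted p = 0.112). It fell without expressing replicate 2 (-0.71, adjusted p = 0.0414). Risers and genes that did not pass were interspersed along the array, for example Pcdhga7 and Pcdhgb4 (higher), Pcdhga8 and Pcdhgb5 (not passed), and Pcdhga9 and Pcdhgb6 (higher) in adjoining positions.

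**Figure D3:**
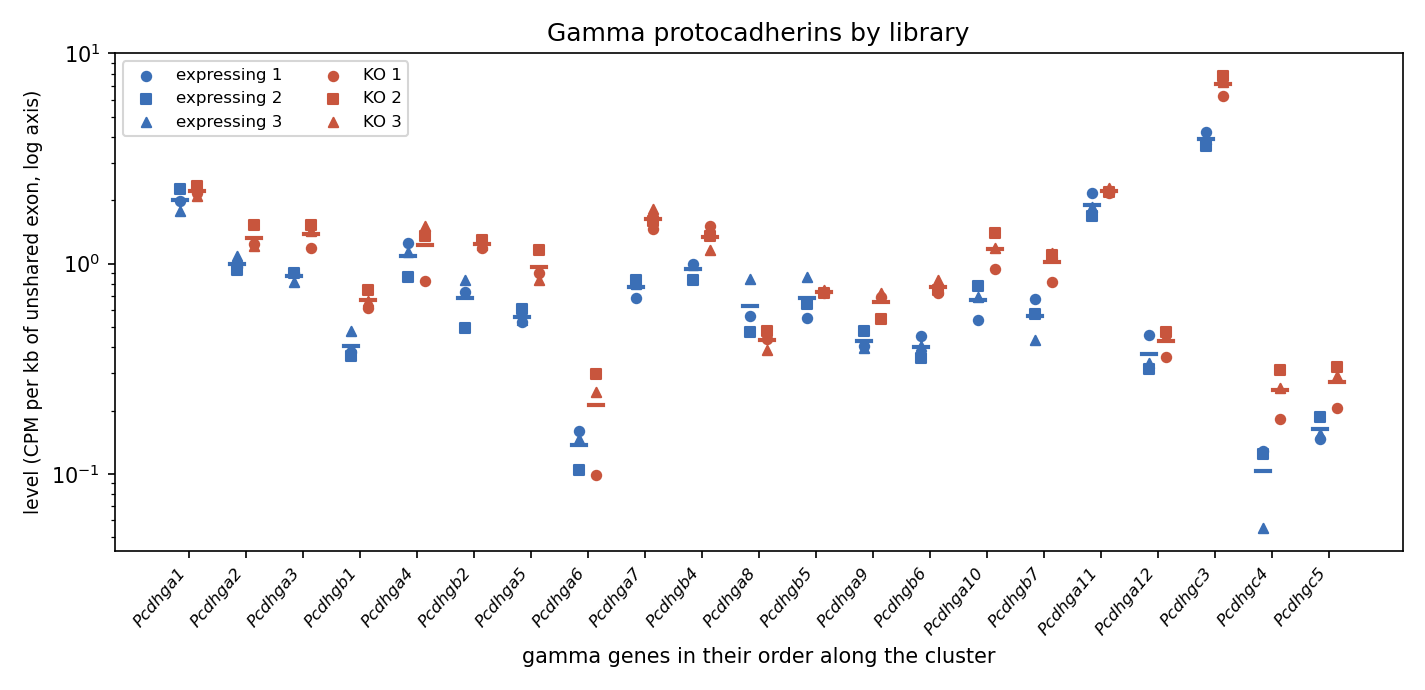
Level of the 21 gamma genes in each library, in CPM per kb of exon sequence that no other gene shares (log axis), with the genes in their order along the cluster, blue for expressing and red for KO, circle, square and triangle for replicates 1, 2 and 3, and bars for group means. Pcdhgc3 stands above all other gamma genes in every library, at 3.92 in the expressing and 7.10 in the KO mean.

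In the beta cluster 10 of 22 members were tested, 1 rose and 1 fell (10.0% each, against 19.2% and 20.8% of all genes tested). The median log2 fold change was 0.32. Pcdhb20 (chr18:37504264-37507822) was at 0.192, 0.181 and 0.219 CPM in the expressing libraries, against 0.430, 0.510 and 0.349 in the KO libraries (1.11 ± 0.329, adjusted p = 0.0243). Pcdhb8 (chr18:37355121-37358604) was at 0.256, 0.408 and 0.438 CPM and at 0.201, 0.133 and 0.0969 (-1.42 ± 0.405, adjusted p = 0.0203). Both groups of each gene stayed apart, but at a few counts per library and with the filter passed through the higher group alone. With DESeq2 both calls were lost (adjusted p = 0.110 and 0.0838). That of Pcdhb20 was also lost without expressing replicates 2 or 3 (0.0807 and 0.0583) or KO replicates 1 or 2 (0.0608 and 0.0950), and that of Pcdhb8 without expressing replicate 3 (0.0811) or KO replicates 2 or 3 (0.0681 and 0.0928). Beta protocadherins are known to combine with other clustered members into adhesion units at the cell surface.

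The other named beta genes did not pass. Pcdhb3 was at 0.168 ± 0.0948 and 0.385 ± 0.109 CPM (1.12 ± 0.442, adjusted p = 0.0711) and Pcdhb16 at 0.226 ± 0.0888 and 0.382 ± 0.0576 (0.71 ± 0.363, adjusted p = 0.147). All KO libraries were higher in both. The most abundant beta genes per kb were Pcdhb22 and Pcdhb14, both of which overlapped between groups. Pcdhb22 (chr18:37517871-37524479) was at 1.41 ± 0.137 and 1.77 ± 0.391 CPM (0.33 ± 0.199, interval -0.11 to 0.78). Pcdhb14 (chr18:37447656-37456350) was at 0.948 ± 0.0798 and 0.978 ± 0.160 CPM (0.05 ± 0.210, interval -0.43 to 0.52). Pcdhb2, Pcdhb17, Pcdhb18 and Pcdhb19 lay between -0.07 and 0.60 with overlapping groups, and 12 beta genes were not tested.

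The alpha cluster was the least expressed, with 1 of 14 members tested. Pcdha3 (chr18:36946105-37187657) was at 0.256, 0.272 and 0.356 CPM in the expressing libraries, against 0.0860, 0.200 and 0.271 in the KO libraries. The groups overlap (-0.59 ± 0.422, interval -1.54 to 0.36, adjusted p = 0.295). Below the filter, Pcdha2 had 3, 3 and 5 counts in the expressing libraries, against 14, 17 and 12 in the KO libraries. A fit without the filter gave it a log2 fold change of 1.72 (adjusted p = 0.0127). The annotation gives the symbol Pcdha11 to 2 identifiers. ENSMUSG00000007440 had 15 counts over the expressing and 47 over the KO libraries (1.44, adjusted p = 0.0257 without the filter), and ENSMUSG00000102206 had 2 and 17 (2.69, adjusted p = 0.0465). The first of these identifiers lies where RefSeq places Pcdha10 in GRCm38.p6, so which gene its counts belong to is uncertain. In the other direction, all KO libraries were lower in CPM for Pcdha1 (-1.19, adjusted p = 0.458 without the filter) and Pcdha7 (-1.12, adjusted p = 0.269). Without the filter, 7 of the 14 alpha values were above 0 and their median was -0.13. These 5 were chosen after their values were seen, and as members below the filter they have no call among the 17778 genes tested. The C-type alpha genes Pcdhac1 and Pcdhac2, the counterparts of the gamma C genes, had 9 and 63 counts over all libraries. Pcdhac2, also below the filter, had 5, 10 and 5 counts in the expressing libraries, against 11, 20 and 12 in the KO libraries. All its KO libraries were higher in CPM (0.88, adjusted p = 0.218 without the filter).

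Summed by cluster, the levels of the gamma and of the non-clustered genes were higher in every KO library than in any expressing library. The gamma sum was 56.6, 52.7 and 55.7 CPM in the expressing libraries, against 75.2, 88.5 and 83.6 in the KO libraries, a ratio of means of 1.50. The groups lie far apart, and the ratio was 1.40 without Pcdhgc3. By type the ratio was 1.34 for A, 1.50 for B and 1.82 for C. The sum of the 12 non-clustered genes was 84.8 ± 5.22 and 119 ± 8.50 CPM (ratio 1.41). The beta sum, at 6.07 ± 0.733 and 7.32 ± 0.834 CPM, and the alpha sum, at 1.78 ± 0.107 and 2.11 ± 0.391 CPM, overlapped between the groups. All members together went from 148 ± 6.78 to 211 ± 14.8 CPM. No test was made on these sums, since they run over chosen genes.

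The makeup of the gamma RNA also differed between the groups. Pcdhgc3 made up 25.3%, 23.1% and 23.7% of the gamma counts in the expressing libraries, against 28.0%, 29.9% and 29.3% in the KO libraries. Pcdhga1 made up 11.4%, 13.9% and 10.3% against 9.34%, 8.60% and 8.16%. Neither share overlapped between the groups, the C-type gene being higher and the A-type gene lower in the KO libraries. All A-type genes together held 52.2% ± 1.75 and 46.5% ± 0.217 of the gamma counts, and B-type genes 21.7% ± 1.79 and 21.9% ± 1.33. Among all protocadherin counts, the share of Pcdh1 was 37.0% ± 3.53 in the expressing and 26.9% ± 1.61 in the KO libraries, and that of Pcdh7 was 2.65% ± 0.562 and 5.72% ± 0.710. These shares are descriptions without a test.

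**Figure D4:**
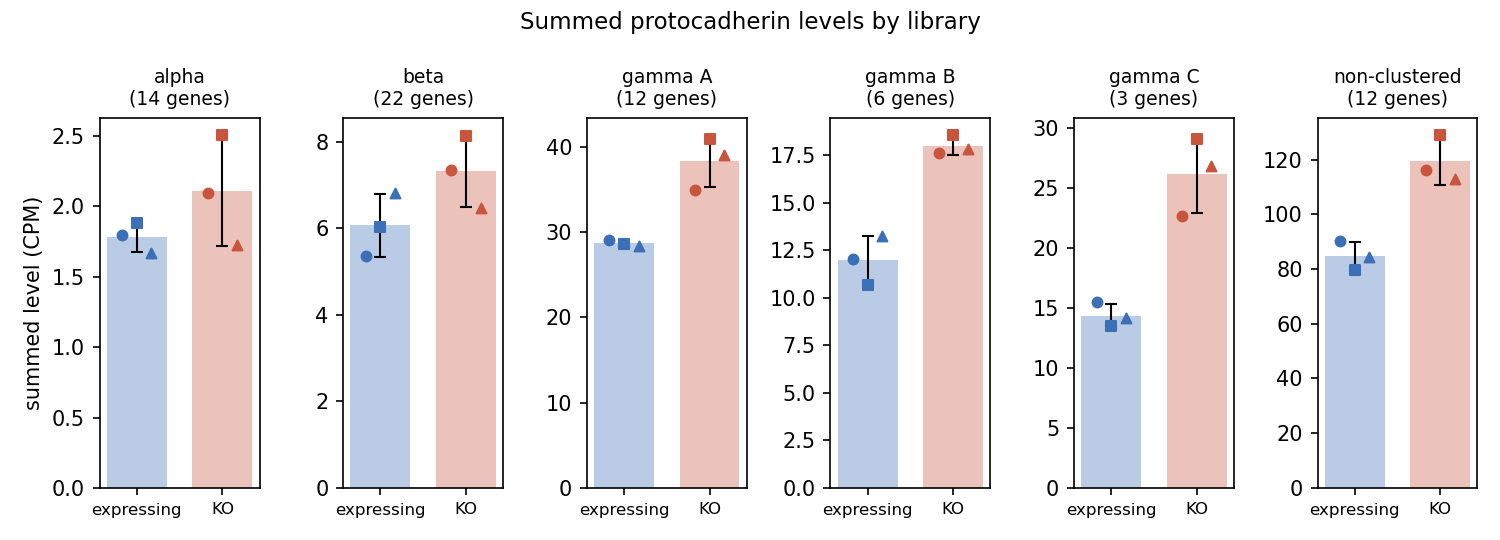
Summed level in CPM of the alpha, beta, gamma A, gamma B, gamma C and non-clustered genes, with bars from 0 for the mean of 3 libraries, error bars for the SD and circle, square and triangle for replicates 1, 2 and 3 (blue expressing, red KO). The symbols of the 2 groups are separate for the 3 gamma types and the non-clustered genes, and overlap for alpha and beta.

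Per kb of unshared exon, which allows levels of different genes to be compared, Pcdh1 led with 6.33 CPM per kb as a mean of the 6 libraries, followed by Pcdhgc3 (5.51), Pcdh18 (2.49), Pcdhga1 (2.10), Pcdhga11 (2.06) and Pcdh19 (1.44). In the expressing cells Pcdh1 (6.22 ± 0.857) and Pcdhgc3 (3.92 ± 0.317) were separate, whereas in the KO cells (6.45 ± 0.283 and 7.10 ± 0.810) their spreads met. Pcdhga1 (2.00 ± 0.240) and Pcdhga11 (1.90 ± 0.243) did not differ beyond their spread in the expressing cells, nor did they in the KO cells (2.20 ± 0.126 and 2.21 ± 0.0635). Pcdh18 was below both in the expressing cells (1.51 ± 0.103) and above both in the KO cells (3.46 ± 0.0852). The tested member with the lowest level was Pcdh10, at 0.0278, and the beta genes took 9 of the lower places from Pcdhb14 (0.111) down to Pcdhb16 (0.0582). Levels of alpha and gamma genes on this scale rest on the reading of their counts as variable-exon counts.

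The genes known to control the clustered promoters fell more often than they rose. Of 32 listed regulators of chromatin loops, DNA methylation and silencing, 1 rose and 16 fell, against 19.2% and 20.8% of all genes tested, and the median log2 fold change was -0.20. Dnmt3b, a de novo DNA methyltransferase that methylates protocadherin promoters, was at 870, 878 and 903 CPM in the expressing libraries, against 429, 397 and 434 in the KO libraries (-1.07 ± 0.0555, adjusted p = 2.61e-06). Trim28, the corepressor of KRAB zinc finger proteins, was at 2076, 1723 and 1784 CPM and at 919, 897 and 887 (-1.05 ± 0.0726, adjusted p = 9.81e-06). Rest, the repressor of neuronal genes, was at 391, 470 and 483 CPM and at 225, 231 and 236 (-0.96 ± 0.0804, adjusted p = 2.83e-05). Each of the 3 was lower in every KO library. Dnmt3l, the cofactor of the de novo enzymes, was the regulator that rose (0.55 ± 0.0762, adjusted p = 0.000495). Ctcf fell by 0.37 on the log2 scale (adjusted p = 0.00184), whereas Smchd1, a silencer of the clusters, was at 268 ± 23.4 and 261 ± 8.10 CPM and did not pass (adjusted p = 0.669). With the GC trend removed 24 of the 32 fell, and without expressing replicate 1, 22.

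Of 22 partners of protocadherin signalling, 4 were higher and 4 lower (18.2% each, near the 19.2% and 20.8% of all genes tested), with a median of -0.05. Cdh2, the N-cadherin with which Pcdh19 and Pcdh8 interact, was at 32.0, 30.8 and 31.8 CPM and at 50.7, 57.9 and 56.5 (0.80 ± 0.0719, adjusted p = 4.07e-05). Its groups were far apart. Axin1, the target of Pcdhgc3, was at 85.0 ± 9.37 and 66.0 ± 0.935 CPM (-0.37 ± 0.0802, adjusted p = 0.00580), and Fyn, a kinase that binds Pcdha, at 30.8 ± 1.17 and 25.5 ± 0.998 (-0.27 ± 0.0707, adjusted p = 0.0142). The call of Fyn was lost with scaling by library totals (adjusted p = 0.108) and without KO replicates 1 or 3 (0.0707 and 0.0564). With 1 library left out, from 1 to 5 of these partners were higher and from 1 to 7 lower.

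Of 18 other large cadherins, 15 were tested, 4 rose and 2 fell (26.7% and 13.3%, against 19.2% and 20.8% of all genes tested), and the median was -0.17. Dchs2, of the Dachsous type, went from 1.38, 1.02 and 1.18 CPM to 4.50, 3.53 and 3.80 (1.73 ± 0.169, adjusted p = 6.37e-05). Fat1, Fat3 and Fat4 rose by 0.34, 0.37 and 0.89. Clstn3, a synaptic calsyntenin, went from 33.7, 26.8 and 30.0 CPM to 12.6, 14.6 and 13.0 (-1.17 ± 0.102, adjusted p = 3.62e-05), and Cdhr1, a photoreceptor cadherin, from 4.91 ± 0.251 to 2.53 ± 0.0797 CPM (-0.96 ± 0.115, adjusted p = 0.000209).

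Among the genes around the array, more fell than rose. Of 18 listed genes at chr18:36664060-37998969, 16 were tested, 1 rose and 7 fell (6.25% and 43.8%, against 19.2% and 20.8% of all genes), and the median was -0.15. Taf7, a TFIID subunit encoded between the beta and gamma clusters, was at 216, 231 and 241 CPM in the expressing libraries, against 182, 169 and 185 in the KO libraries (-0.36 ± 0.0634, adjusted p = 0.00181). Diaph1, a formin just beyond the gamma cluster, was at 227 ± 2.01 and 183 ± 5.59 CPM (-0.31 ± 0.0528, adjusted p = 0.00156), and Wdr55 at 64.5 ± 6.61 and 48.9 ± 0.894 CPM (-0.40 ± 0.0795, adjusted p = 0.00348). All KO libraries were lower in these 3 genes. With scaling by library totals, which shifts the median of all genes to 0.08, 4 of the neighbours fell instead of 7, while the gamma genes gave the same 14 higher and 0 lower.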

How the data were processed

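Stranded poly(A) libraries were sequenced from 3 dishes per condition. The table that the authors deposited gives raw read counts, as whole numbers without normalization. The submitters' processing notes name HTSeq 0.6.1p1, STAR 2.5.3a, cutadapt 1.10, bcl2fastq 2.20.0.422 and the build mm10. Which settings and annotation release were used is not given in the sources used here. Symbols and positions come from GENCODE M21 (same build), which named 55141 of 55401 identifiers.

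Samples were grouped by title. The analysis used edgeR 4.0.16 (R 4.3.3) with filterByExpr (minimum count 10, minimum total 15), TMM, glmQLFit (robust) and glmQLFTest with the group as the only term, and Benjamini-Hochberg adjustment over 17778 genes (threshold 0.05). The filter corresponds to 0.244 CPM in 3 libraries. Standard errors and 95% intervals follow from the test statistic, and the common biological coefficient of variation was 9.05%. The procedure was also run on simulated counts with the same coefficient of variation for every gene. That setting does not reproduce a library that stands apart, as expressing replicate 1 did. Alternatives were DESeq2 1.42.0, library totals, DESeq2 size factors, no filter, 1 CPM in 3 libraries, a replicate block, removal of each library's GC trend, and leaving out each library.

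The members and lists were chosen with earlier results of these data known. Named genes were all tested non-clustered members, the 5 lowest p-values and 2 highest levels per kb of unshared exon in each cluster, and the 3 lowest p-values in each pathway list. The other members in the text were named after their values were seen, to account for the whole family. Pcdhgb8, annotated as a polymorphic pseudogene, was outside the rule. Promoters are RefSeq's (GRCm38.p6).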

Additional observations from a re-analysis of the deposited data

How the results depend on the processing

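Same-numbered libraries showed no strong shared deviation from their group means, with correlations of 0.0236, -0.0342 and 0.0419 across genes. These values cannot tell whether same-numbered dishes were prepared together. With the replicate block 18 members rose and 2 fell, among them 13 gamma and 4 non-clustered risers, the lost calls being Pcdh10 and Pcdhga2. DESeq2 gave 1 member lower, 1 alpha higher, and 0 beta higher and 0 lower. Without the filter there were 3 alpha and 0 beta higher and 4 large cadherins lower. At 1 CPM in 3 libraries 1 member was lower, with 0 beta higher and 0 lower. Library totals gave 1 signalling partner and 4 neighbours lower. With the GC trend removed 7 partners and 6 large cadherins were lower. In the fits without 1 library, the ranges were 14 to 24 members higher and 0 to 2 lower, alpha 0 to 2 higher and 0 to 1 lower, beta 0 to 1 higher and 0 to 1 lower, gamma 10 to 15 higher and 0 to 1 lower, non-clustered 4 to 6 higher and 0 to 1 lower, partners 1 to 5 higher and 1 to 7 lower, large cadherins 3 to 4 higher and 2 to 5 lower, neighbours 0 to 2 higher and 4 to 7 lower. The log2 fold change of Pcdh9 ran from -0.138 (without KO replicate 2) to 0.326, that of Pcdh1 from -0.0281 (without expressing replicate 2) to 0.195, and that of Pcdhb14 from -0.0615 (without KO replicate 3) to 0.178, with -0.0239 after removal of the GC trend. The cause of these shifts was not tested, beyond fewer libraries or genes entering some fits. Depth limits the alpha and beta genes most, with 25 of 57 clustered members untested.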

Other observations

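The array holds 23 genes that are not protocadherins, Taf7 among them, of which 5 were tested. Of these 5, 3 rose, and Taf7 and 4930517L18Rik fell (19.2% and 20.8% of all genes tested rose and fell). The long noncoding RNA 3222401L13Rik was at 5.91 ± 1.28 and 9.10 ± 0.546 CPM (log2 fold change 0.61 ± 0.148, adjusted p = 0.00954). Gm26672, described above, lies opposite Pcdhga10. BC037039, on the strand opposite Pcdhgc3, had 4, 14 and 7 counts in the expressing libraries, against 17, 25 and 28 in the KO libraries (1.25 ± 0.347, adjusted p = 0.0178), without overlap in CPM. The call was lost with DESeq2 (adjusted p = 0.0502). Of its 2205 exon bases, 1559 lie opposite Pcdhgc3, and carry-over of reads between the strands was not tested. In the other direction, 4930517L18Rik had 28, 24 and 24 counts in the expressing libraries, against 6, 6 and 9 in the KO libraries (-2.09 ± 0.336, adjusted p = 0.00111). It passed the filter through the expressing group only, its KO libraries being at 0.172, 0.133 and 0.174 CPM. These genes were picked by position, with their values in view. The polymorphic pseudogene Pcdhgb8 had 33, 39 and 37 counts and 39, 25 and 60 counts (-0.06 ± 0.286, adjusted p = 0.897).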
